A study of Zea mays with 6 samples.

Results

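The genes described here are 3 protein-coding genes from the far part of maize chromosome 3: see2b (GRMZM2G093032), rf2c (GRMZM2G071021) and GRMZM2G021517, for which the name table gives no symbol. They are 3 of 39628 gene models in the deposited tables, and all 3 were among the 18702 genes with enough counts to be tested. They were chosen by gene ID after a comparison of the same libraries had singled them out, so their differences between the lines are given as descriptions, with no test. Each was high in 1 line and low in the other, and see2b lay in the opposite direction to the other 2.

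The material was leaf RNA from field-grown maize (Zea mays) at the 6-leaf stage. The 2 groups were Q319, the inbred wild type, and a transgenic line named L100, with 3 libraries each. The labels do not name the transgene of L100, its promoter or the number of insertions. The genotype label of L100 also does not say whether its background is Q319. Whether the libraries within a group are separate plants is not in the labels either. Spreads and p-values thus measure only the variation between these samples, which may be technical.

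Legumains, also called vacuolar processing enzymes, are cysteine proteases that cut proteins after asparagine and bring other vacuolar enzymes, papain-like proteases among them, to their mature form. see2b encodes a legumain-like protease, and the see genes took their name from being senescence-enhanced in maize leaves. rf2c encodes an aldehyde dehydrogenase, an enzyme that oxidises reactive aldehydes to acids. It is a cytosolic relative of rf2, the mitochondrial aldehyde dehydrogenase first known as a restorer of fertility in male-sterile maize.

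Total counts ran from 8320337 to 9922468 in the wild type and from 6458248 to 7536583 in L100. Wild type libraries differed more among themselves than L100 libraries did. The standard deviation of log2(CPM + 0.5) within a group had a median over all tested genes of 0.452 in the wild type and 0.298 in L100, where CPM is counts per 1000000 of the library size, scaled by edgeR's trimmed mean of M values (TMM). Wild type replicate 3 lay farthest from the other 2 libraries of its group, by a median absolute log2 difference of 0.474, although replicate 2 was close behind at 0.468. The leaf markers pep1 and pdk1 of the mesophyll and me3 and ssu1 of the bundle sheath lay between 3893 and 55812 CPM in every library. Summed CPM of the 2 mesophyll markers ran from 44853 to 73331 in the wild type and from 80156 to 97503 in L100, without overlap, and neither pep1 (log2 fold change 0.62, edgeR adjusted p = 0.664) nor pdk1 (0.54, edgeR adjusted p = 0.689) passed. The sum of the 2 bundle sheath markers overlapped, at 10739 to 17266 and 16443 to 20450 CPM. The part of these marker levels in the differences given here was not tested. The kernel genes o2 and vp1 had 0 counts in all 6 libraries, wx1 reached 0.513 CPM, and the meristem gene kn1 reached 0.162 CPM.

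The protease gene see2b was lower in L100. It had 202, 180.0 and 209 CPM in wild type replicates 1 to 3 and 52.2, 40.3 and 42.5 CPM in L100 replicates 1 to 3. All wild type libraries were high and all L100 libraries low, and the nearest pair of libraries from the 2 groups still differed 3.45-fold. The means were 197 ± 15.1 and 45.0 ± 6.34 CPM (SD, n = 3 per group), and the edgeR log2 fold change was -2.13 ± 0.25 (SE), or 4.38-fold lower in L100. Without wild type replicate 3 the log2 fold change was -2.09. In bulk leaf RNA, fewer cells of a type and less RNA per cell cannot be told apart.

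The aldehyde dehydrogenase gene rf2c was higher in L100. It had 32.2, 45.7 and 44.2 CPM in wild type replicates 1 to 3 and 105, 119 and 122 CPM in L100 replicates 1 to 3. The lowest L100 library exceeded the highest wild type library 2.29-fold. The means were 40.7 ± 7.40 and 115 ± 9.36 CPM (SD, n = 3 per group), and the log2 fold change was 1.50 ± 0.25 (SE, edgeR), or 2.83-fold. Without wild type replicate 3 it was 1.57.

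GRMZM2G021517, the least abundant of the 3 genes, was also higher in L100. It had 5.13, 6.77 and 3.77 CPM in wild type replicates 1 to 3, from 45 to 53 counts per library. In L100 replicates 1 to 3 it had 18.3, 18.2 and 19.3 CPM, from 112 to 131 counts. The L100 libraries lay within a narrow band, with a coefficient of variation of 3.27%, against 28.8% in wild type. The log2 fold change was 1.84 ± 0.30 (SE, edgeR), or 3.57-fold, and it was 1.64 without wild type replicate 3.

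Across all tested genes, 0.834% had an adjusted p under 0.05 by the quasi-likelihood test of edgeR, made up of 0.519% of tested genes that were higher in L100 and 0.315% that were lower. An unadjusted p under 0.05 was found for 10%. DESeq2 called 3.05% and limma-voom 0.829% at that threshold. In 16.2% of tested genes the libraries of the lines did not overlap, with 7.69% higher and 8.47% lower in L100. The same values had been used to choose the 3 genes, so their place among these genes supports nothing further.

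**Figure D1:**
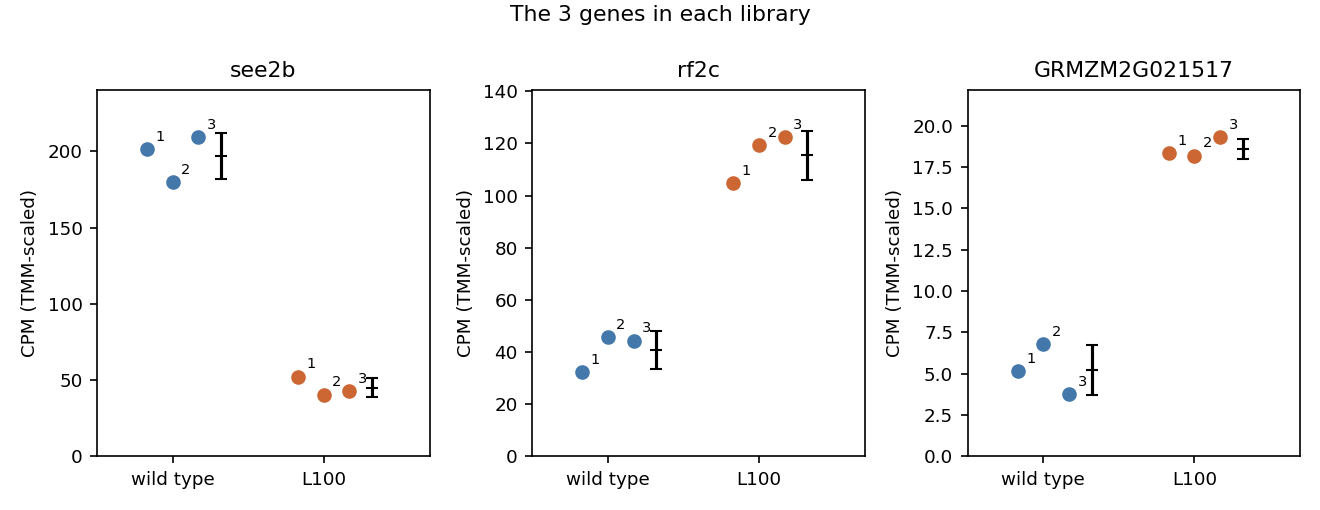
CPM on TMM-scaled library sizes (y axis, from 0) of see2b, rf2c and GRMZM2G021517 in the 3 wild type and 3 L100 libraries. Points are libraries, numbered by replicate, and bars give the mean and SD; see2b lies between 180.0 and 209 CPM in the wild type and between 40.3 and 52.2 CPM in L100, while the other genes are higher in every L100 library.

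The order of the 3 genes within a leaf changed between the lines. Levels of different genes were compared as FPKM, a fragment count scaled by length and library depth, as deposited. In wild type see2b had 104 ± 7.41 FPKM, rf2c 24.4 ± 4.21 and GRMZM2G021517 3.32 ± 1.04 (SD, n = 3 each), and no 2 of them overlapped. In L100 rf2c was the highest at 70.3 ± 7.39 FPKM, followed by see2b at 24.0 ± 3.38 and GRMZM2G021517 at 10.2 ± 0.350 FPKM, again without overlap.

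The FPKM ratio of rf2c to see2b was 0.186, 0.289 and 0.230 in the wild type libraries and 2.27, 3.25 and 3.45 in the L100 libraries, in replicate order. The protease transcript was thus the more abundant in every wild type library and the dehydrogenase transcript in every L100 library. The FPKM ratio of GRMZM2G021517 to rf2c, both higher in L100, overlapped between the lines, at 0.137 ± 0.0337 in the wild type and 0.146 ± 0.0108 in L100.

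Among all tested genes, 4.30% had a higher mean FPKM than see2b in the wild type and 22.2% in L100. For rf2c these shares were 21.1% in the wild type and 7.93% in L100. GRMZM2G021517 was exceeded by 76.7% of tested genes in the wild type and by 43.7% in L100.

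Replicates of see2b lay close together in the wild type, where most genes were more variable. Its log2(CPM + 0.5) had a standard deviation of 0.112 there, against a median of 0.425 over the 13940 tested genes with a mean of at least 5 CPM, and of 0.195 in L100, against 0.270. The values for rf2c were 0.275 in the wild type and 0.119 in L100, and for GRMZM2G021517 0.384 and 0.0456. Small spread within groups raises a gene's chance of being chosen by such a comparison, so this too is a description.

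The other legumain-like genes with a symbol were see2a (GRMZM2G081626) and vpe1 (GRMZM2G463291). see2a, a legumain-like gene on chromosome 8, had 41.7, 45.1 and 18.0 CPM in wild type replicates 1 to 3 and 17.5, 22.6 and 16.6 CPM in L100 replicates 1 to 3. Its wild type replicate 3 lay among the L100 libraries, so the groups overlapped. The log2 fold change of -0.89 ± 0.37 (SE) did not pass (edgeR adjusted p = 0.480, unadjusted p = 0.0439), nor did DESeq2 or limma-voom call the gene. vpe1 was at or below 0.650 CPM in every library, too few counts to be tested. The difference between the see2b and see2a changes was not tested.

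The 3 legumain genes together were lower in every L100 library. Their summed FPKM was 128, 121 and 121 in the wild type libraries and 37.5, 34.2 and 31.6 in the L100 libraries, in replicate order. see2b made up 84.7 ± 6.32% of that sum in the wild type and 69.6 ± 5.89% in L100 (SD, n = 3 per group), and stayed the most abundant of the 3 in every library. As see2b was chosen for its difference, the lower sum largely restates that choice.

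Relatives of rf2c in the aldehyde dehydrogenase family that were found by symbol gave no call. Of 7 tested IDs besides rf2c, 2 were higher and 5 lower in L100, and the median log2 fold change was -0.41, against -0.03 over all tested genes. Without wild type replicate 3 it was -0.12. With unscaled library totals all 7 were lower, but the median of all tested genes was then -0.26. By edgeR 0 of them passed, 0 had an unadjusted p under 0.05, and DESeq2 and limma-voom also called 0. Of all tested genes, 0.834% passed in edgeR and 10% had an unadjusted p under 0.05. DESeq2 called 3.05% and limma-voom 0.829%, so 0 among 7 genes is near those shares. The gene next to rf2c on the chromosome is rf2d (GRMZM2G097706), its cytosolic relative. rf2d had 7.60, 24.9 and 6.87 CPM in wild type replicates 1 to 3 and 11.1, 17.1 and 14.3 CPM in L100 replicates 1 to 3. Its groups overlapped fully (log2 fold change 0.11 ± 0.51 SE, edgeR adjusted p = 0.963). Close relatives can exchange reads, and the sources used here do not say how the authors' counting treated such reads, so the division between rf2c and rf2d is uncertain.

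The mitochondrial rf2 (GRMZM2G058675) was the most abundant of the listed IDs, at 426 ± 218 CPM in the wild type against 320 ± 39.0 CPM in L100. It did not pass (edgeR adjusted p = 0.785). Its highest value, 655 CPM, was in the wild type replicate 3. The aminoaldehyde dehydrogenase genes, whose enzymes act in polyamine breakdown, included AMADH1b (GRMZM2G016189) at 55.0 ± 24.1 and 38.4 ± 3.23 CPM in the wild type and L100 and AMADH1A (GRMZM2G146754) at 38.9 ± 9.42 and 35.7 ± 1.93 CPM. ALDH7 (GRMZM2G130440) had 52.6 ± 5.26 and 39.0 ± 5.36 CPM in the wild type and L100, and AMADH2 (GRMZM2G135470), named after its values were seen, 35.5 ± 6.46 and 24.2 ± 2.25 CPM. ALDH7 and AMADH2 were the 2 of the 7 (28.6%, against 16.2% of all tested genes) whose libraries did not overlap between the lines, and neither passed (edgeR adjusted p = 0.611 and 0.497).

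The summed FPKM of rf2c and these 7 IDs overlapped between the lines, at 368 ± 127 in the wild type and 339 ± 16.0 in L100 (SD, n = 3 per group). In replicate order, rf2c supplied 5.79, 10.9 and 5.05% of it in the wild type libraries and 19.5, 19.6 and 23.2% in the L100 libraries. Its share was thus higher in every L100 library while the total of these IDs was not. The IDs were found by symbol, with rf2b and ALDH12 left out, so they are only a part of the family. As rf2c was chosen for its difference, its share partly restates that choice.

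**Figure D2:**
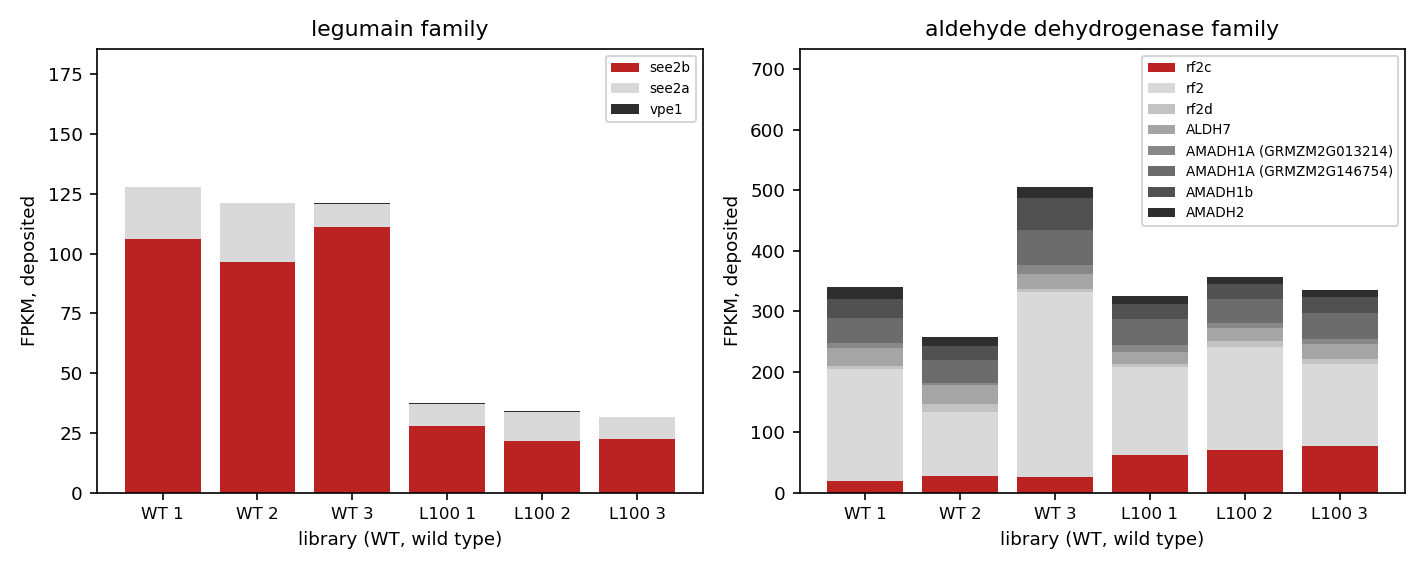
Deposited FPKM (y axis, from 0) of legumain-like genes (left) and aldehyde dehydrogenase genes (right) stacked for each library; red is see2b or rf2c and greys are the relatives. The legumain total lies between 121 and 128 FPKM in the wild type and between 31.6 and 37.5 FPKM in L100, most of it see2b, while the dehydrogenase total overlaps and its rf2c share is larger in L100.

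Among papain-like cysteine proteases, which legumains help to mature, 4 tested genes were found by symbol, all lower in L100. They are only a part of that class. Their median log2 fold change was -1.27, against -0.03 over all tested genes. Without wild type replicate 3 the median was -0.25, with all 4 still lower. By edgeR 0 of the 4 passed and 1 had an unadjusted p under 0.05. That gene, mir2 (GRMZM2G150256), named for its similarity to an insect resistance protease, had 12.0, 15.0 and 35.2 CPM in wild type replicates 1 to 3 and 2.10, 2.76 and 5.79 CPM in L100 replicates 1 to 3. The groups did not overlap (log2 fold change -2.55 ± 0.55 SE, edgeR adjusted p = 0.106). DESeq2 called mir2 alone of the 4 (adjusted p = 0.00106), or 25%, against its 3.05% of all tested genes. By limma-voom none of the 4 was called.

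The senescence-enhanced see1 (GRMZM2G038636) and ccp1 (GRMZM2G098298) did not follow see2b library by library. see1 had 147, 273 and 743 CPM in wild type replicates 1 to 3 and 179, 275 and 141 CPM in L100 replicates 1 to 3, and ccp1 had 285, 115 and 1045 CPM in the wild type and 156, 191 and 142 CPM in L100. Both peaked in the wild type replicate 3, and their groups overlapped (edgeR adjusted p = 0.660 and 0.527). mir3 (GRMZM2G166281) had 522 ± 54.6 and 444 ± 69.8 CPM in the wild type and L100 (edgeR adjusted p = 0.820).

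Other genes of leaf senescence and autophagy gave no call either. Of 14 tested besides see1, 4 were higher and 10 lower in L100, and the median log2 fold change was -0.11. Without wild type replicate 1 the median was 0.10, with 8 higher and 6 lower, and without L100 replicate 3 it was 0.01. With all libraries edgeR, DESeq2 and limma-voom each called 0. Of all tested genes they called 0.834%, 3.05% and 0.829%. For this list and the smaller lists below, 0 calls are thus near those shares. By edgeR 2 (14.3%) had an unadjusted p under 0.05, against 10% of all tested genes. lls1 (GRMZM2G339563), which acts in chlorophyll breakdown, had 57.2 ± 38.4 and 85.9 ± 20.4 CPM in the wild type and L100 (edgeR adjusted p = 0.768). Cystatins, the inhibitors of papain-like proteases, had 5 tested genes, 2 higher and 3 lower, with a median of -0.01 and 0 calls by each of the 3 tools and 0 at an unadjusted p under 0.05. The most abundant were cc3 (GRMZM2G440968) at 103 ± 48.5 and 107 ± 16.4 CPM in the wild type and L100 and cc4 (GRMZM2G013461) at 56.0 ± 17.1 and 48.4 ± 4.91 CPM. Of the 4 tested genes that make acetaldehyde from pyruvate or interconvert it with ethanol, 2 were higher and 2 lower, with 0 calls by each tool and 0 at an unadjusted p under 0.05. adh2 (GRMZM2G098346), an alcohol dehydrogenase, had 78.3 ± 56.7 and 120 ± 54.2 CPM, and pdc3 (GRMZM2G087186), a pyruvate decarboxylase, 12.2 ± 8.36 and 6.32 ± 0.711 CPM.

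The 3 genes lie in the order rf2c, see2b, GRMZM2G021517 toward the end of chromosome 3. The order was taken from RefSeq records of Zm-B73-REFERENCE-NAM-5.0, which is a newer build than the B73 RefGen_v3 of the files, so no coordinates are given. see2b was 141 records after rf2c, and GRMZM2G021517 was 54 records after see2b, so they are neighbours in a broad sense and not adjacent genes. Of 1391 tested genes placed on chromosome 3, 4 had an edgeR adjusted p under 0.05, or 0.288%, against 0.395% of all 12913 placed genes. These were the 3 genes themselves, for which this restates the choice, and cab48 (GRMZM2G120619), which encodes an antenna protein that binds chlorophyll a and b for light harvesting.

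cab48 stood 49 records after rf2c and 92 before see2b. It had 228, 122 and 124 CPM in wild type replicates 1 to 3 and 2006, 885 and 1129 CPM in L100 replicates 1 to 3, and it rose by 3.09 ± 0.45 on the log2 scale (SE, edgeR adjusted p = 0.0316). Leaving out any 1 L100 library ended the call (edgeR adjusted p 0.112 to 0.166, log2 fold change 2.68 to 3.32), as did the replicate block (edgeR adjusted p = 0.0539) and requiring at least 1 CPM in every library (edgeR adjusted p = 0.0899). Antenna genes are a family of similar copies, so its count may hold reads of others.

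The nearest tested genes on either side of each of the 3 did not pass the test. Besides rf2d, GRMZM2G366935, just before rf2c, had 21.2 ± 5.16 and 17.1 ± 3.75 CPM in the wild type and L100 (edgeR adjusted p = 0.768). Around see2b, GRMZM2G369839 had 15.7 ± 9.00 and 26.8 ± 9.65 CPM (edgeR adjusted p = 0.648) and GRMZM2G090647 had 16.0 ± 2.92 and 16.5 ± 1.63 CPM (edgeR adjusted p = 0.970). Around GRMZM2G021517, GRMZM2G036050 had 22.1 ± 7.62 and 32.5 ± 6.14 CPM (edgeR adjusted p = 0.636) and GRMZM2G021194 had 30.1 ± 6.53 and 34.2 ± 4.84 CPM (edgeR adjusted p = 0.855). In these 5 genes and in rf2d the libraries of the lines overlapped. With 3 libraries per group, smaller differences in these genes could go undetected. Of all tested genes, 0.834% passed in edgeR and 16.2% had libraries that did not overlap. Finding none among so few genes is near those shares and does not set these neighbours apart.

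A wider set took the 10 records on each side of each gene and all records between see2b and GRMZM2G021517. Of 31 tested genes there, 23 were higher and 8 lower in L100, and the median log2 fold change was 0.11; with unscaled library totals 13 were higher and 18 lower. By edgeR 0 passed and 3 had an unadjusted p under 0.05, which is 9.68% against 10% of all tested genes, while DESeq2 and limma-voom called 0. Their libraries did not overlap in 16.1%, close to the 16.2% of all tested genes.

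The whole stretch from rf2c to GRMZM2G021517 was counted as well, a choice made after the values were known. Of 65 tested genes between them, see2b left out, 21 had libraries that did not overlap, 14 higher and 7 lower in L100. This was 32.3%, against 16.2% of all tested genes and 12.0% of 1388 on chromosome 3 without the 3 genes. In the 195 records before rf2c, 6.85% of 73 tested genes had libraries that did not overlap. From GRMZM2G021517 to the chromosome end, 7.32% of 41 tested genes did. The share was 34.8% of 46 genes between rf2c and see2b and 26.3% of 19 between see2b and GRMZM2G021517. No test of these shares was made, since the ends of the stretch were set by genes chosen for their difference.

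The 21 genes had absolute log2 fold changes from 0.27 to 3.09, with a median of 0.78, against 0.88 for the 3022 tested genes without overlap in all. Over all tested genes of each stretch the median absolute log2 fold change was 0.37 between rf2c and GRMZM2G021517, 0.31 before it and 0.24 after it, against 0.33 over all tested genes. Besides cab48, 0 of the 65 passed in edgeR, and 13 had an unadjusted p under 0.05, cab48 included. This is 20.0%, against 10% of all tested genes. DESeq2 called 2, or 3.08%, close to its 3.05% of all tested genes. They were cab48 and GRMZM2G034985, which was named after its values were seen. GRMZM2G034985 had 20.0, 32.1 and 24.4 CPM in wild type replicates 1 to 3 and 6.44, 0.487 and 2.09 CPM in L100 replicates 1 to 3 (DESeq2 adjusted p = 0.000996, edgeR adjusted p = 0.128). It lay 35 records before see2b.

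**Figure D3:**
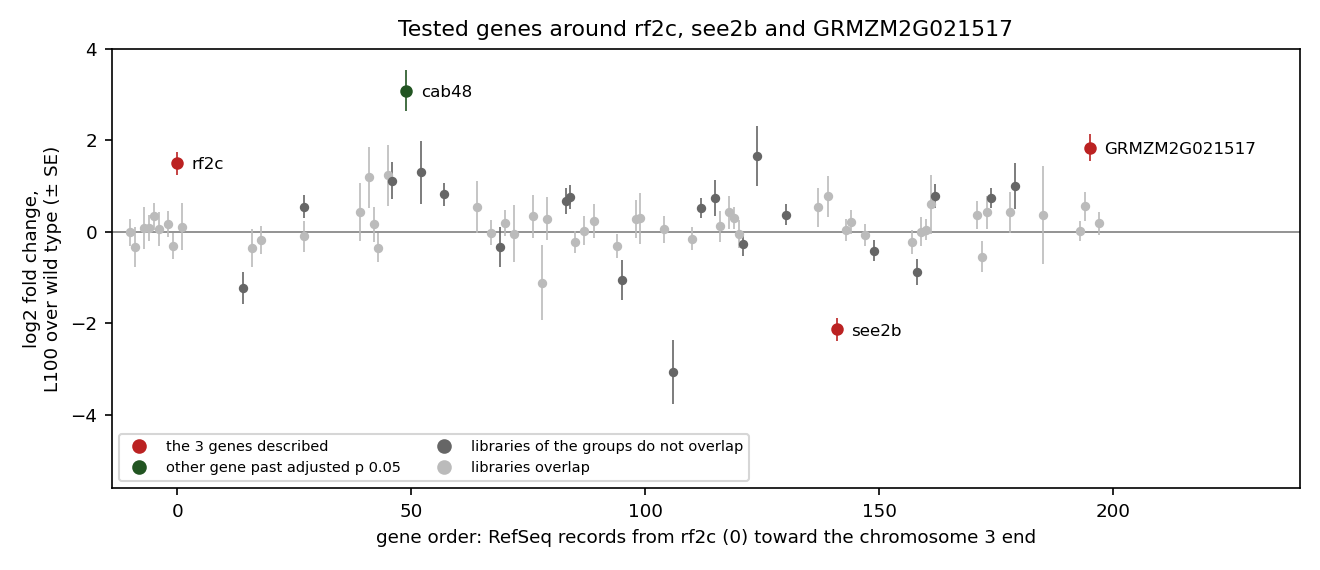
Log2 fold change of L100 over wild type (y axis, bars give SE from edgeR) for tested genes in chromosome order, as RefSeq records counted from rf2c (x axis). The 3 genes are red, cab48 is green, and dark grey marks other genes whose libraries did not overlap between the lines; genes well above or below 0 stand among genes near 0 between rf2c and GRMZM2G021517.

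Likeness of pattern was measured as the root mean square difference of log2(CPM + 0.5), each gene centred on its mean over the 6 libraries. It was taken over the 13940 tested genes with a mean of at least 5 CPM, and it rests mostly on the difference between the lines. The genes most like see2b were GRMZM2G116785 (0.172), GRMZM2G042664 (0.180) and GRMZM2G153725 (0.251). Those most like rf2c were GRMZM2G039373 (0.102), GRMZM2G107402 (0.179) and GRMZM2G083410 (0.192). Those most like GRMZM2G021517 were acco20 (GRMZM2G126732, 0.117), a gene with an ACC oxidase symbol, fad7 (GRMZM2G128971, 0.152), with a fatty acid desaturase symbol, and GRMZM5G808939 (0.168). fad7 had 339, 478 and 268 CPM in wild type replicates 1 to 3 and 1338, 1399 and 1076 CPM in L100 replicates 1 to 3. In L100 its lowest library was replicate 3, where GRMZM2G021517 was highest.

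**Figure D4:**
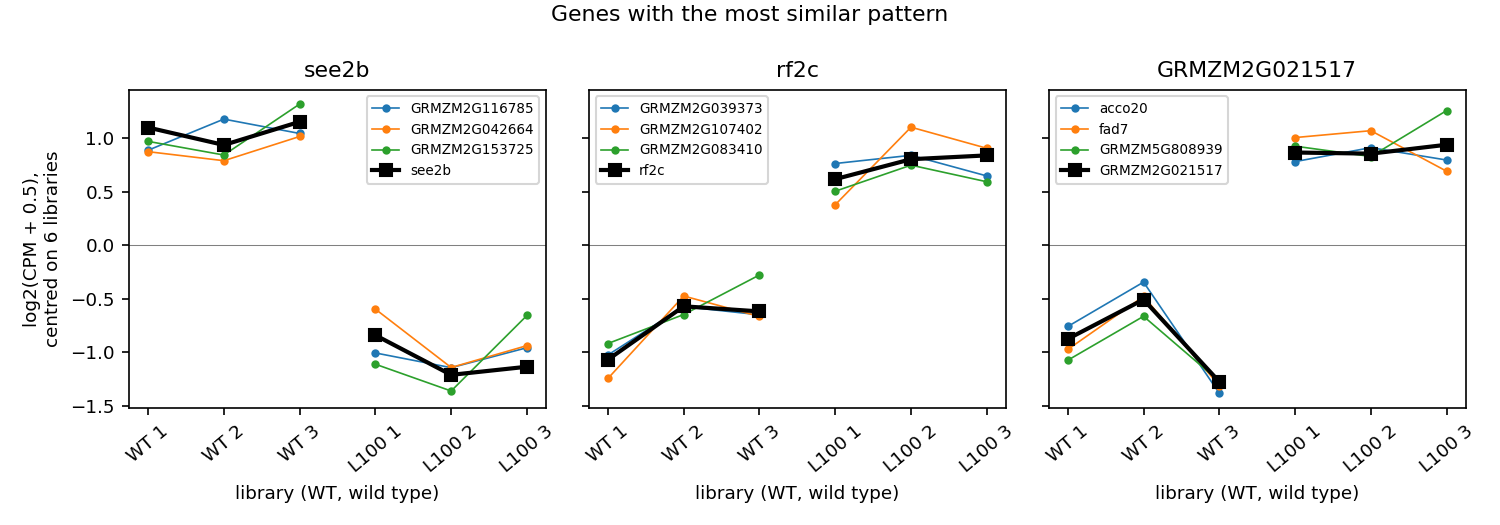
Log2(CPM + 0.5) centred on the mean of the 6 libraries (y axis) for see2b, rf2c and GRMZM2G021517 (black squares) and the 3 genes nearest to each (coloured points) in each library (x axis); lines join libraries of a group only to guide the eye. The nearest genes differ from their partner by 0.102 to 0.251 on the log2 scale, as a root mean square.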

How the data were processed

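Per the labels, RNA of frozen leaves was taken up in Trizol and sequenced from Illumina libraries. Bowtie 0.12.2 and B73 RefGen_v3 are named in the submitters' processing notes; no counting tool is named there or in the labels. For each of 39628 gene models the authors' tables give, per the file headers, an estimated count of fragments, FPKM and a scaled fragment signal. The deposited signal equals the count times 1 factor per library and was not used. The deposited FPKM served only to compare levels between genes. Only 0.300% of the deposited estimated counts lay more than 0.001 from a whole number, and all were rounded. A floor of 3 counts is 0.302 to 0.465 CPM per library, counting error only.

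L100 and wild type were compared with edgeR 4.0.16 in R 4.3.3 (quasi-likelihood test, TMM scaling, filterByExpr, no block, Benjamini-Hochberg over 18702 genes, threshold 0.05), tried on simulated data. SE is the absolute log2 fold change over the square root of F. Alternatives were DESeq2 1.42.0, limma-voom (limma 3.58.1), RLE and unscaled totals, no filter and at least 1 CPM in every library, a replicate block and each library left out.

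Names and gene order came from RefSeq records; 18773 IDs (47.4%) matched, and IDs shared by several records (519, rf2b and ALDH12 among them) were left out. Sequences were not used here. Families had been planned by protein similarity but were formed from symbols, and cys1 and cys2, planned as cystatins, were dropped because the table does not show them to be inhibitors. The genes and lists were chosen with earlier results of these data known. Named genes were the called and the most abundant members of each list, the nearest tested neighbours and the 3 most alike in pattern.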

Additional observations from a re-analysis of the deposited data

How the results depend on the processing

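Direction of the 3 genes held under all 13 alternatives. With a library left out, the log2 fold change of see2b lay between -2.24 and -2.05, that of rf2c between 1.36 and 1.60 and that of GRMZM2G021517 between 1.64 and 2.07. Unscaled library totals gave -2.36, 1.28 and 1.64, while the median of all genes moved by -0.23. Of all tested genes, 156 were called by edgeR, 570 by DESeq2, 10 with at least 1 CPM required in every library, and 0 to 222 with a library left out (6 without L100 replicate 1, 0 without replicate 2 or 3). Between rf2c and GRMZM2G021517, edgeR called 1 gene, DESeq2 2, the stricter filter 0, and leaving out a library 0 to 3, with 3 without wild type replicate 3. DESeq2 called 1 papain-like protease gene, and the wider neighbour set had 0 to 1 calls with a library left out. The legumain and aldehyde dehydrogenase relatives had 0 calls under each alternative. They were only 1 and 7 tested genes in the main fit, and several alternatives called few or no genes anywhere. Their 0 calls thus say little about these relatives. The share of genes in the stretch whose lines did not overlap was 24.6 to 32.3% under other scalings and filters and 35.4 to 46.2% with a library left out, against 14.0 to 19.2% and 22.1 to 36.5% of all genes, and in each of these settings it exceeded the shares before and after the stretch. It was 46.2% without wild type replicate 2, when the share before rf2c was 31.5%. The cause of these shifts was not tested.

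With the replicate number as a block, edgeR called 5 genes in all and 0 in the stretch; the 3 genes had log2 fold changes of -2.14, 1.52 and 1.87. Deviations from group means correlated at 0.398, 0.355 and 0.0139 for numbers 1 to 3. Numbers 1 and 2 matched best with their own, and number 3 did not. Whether samples of the same number share more than the number was not tested.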
